A study of Homo sapiens with 4 samples.

Results

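The ID genes and their E-protein partners are 7 genes of the basic helix-loop-helix (bHLH) system, taken by symbol from a count table of 64252 genes. They comprise the 4 ID genes (ID1, ID2, ID3 and ID4) and the 3 E-protein genes (TCF3, TCF4 and TCF12), and each matched 1 row of the table. All 7 passed the filter on low counts, which kept 19093 genes. The set was put together with the contrast described here already known, and its members were chosen by symbol with their counts and fold changes between the 2 groups in view. Those values are therefore given as a description, with no p-value.

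The cells were SK-N-BE(2), an established human neuroblastoma line with amplified MYCN. RNA sequencing compared a control carrying a scramble short hairpin RNA (shRNA), labelled sh-Scb, with cells carrying an shRNA against IRF2BP2, labelled sh-IRF2BP2, at 2 libraries per group. All libraries came from this 1 line, and no label gives a clone, a time after transfection or a separate culture for a replicate, so that the spread between replicates may be technical. IRF2BP2 encodes a transcriptional co-regulator. The comparison addressed which transcripts differ between cells with the IRF2BP2 shRNA and cells with the scramble control. Whether effects of the shRNA other than the lowering of IRF2BP2 play a part was not tested.

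E proteins are broadly expressed bHLH transcription factors. They bind DNA at E-box sequences, as dimers of E proteins or together with tissue-specific bHLH factors such as HAND2 in sympathetic neuroblasts. ID proteins hold the helix-loop-helix dimerization domain but lack the basic region that contacts DNA, so a dimer of an ID protein with an E protein does not bind the E-box. ID genes are known as direct targets of bone morphogenetic protein (BMP) signalling through SMAD factors, and in many neural lineages high ID levels go with a proliferating, undifferentiated state.

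IRF2BP2 itself was at 243 and 238 CPM (counts scaled to a common library total) in the scramble libraries and at 89.6 and 87.5 CPM with the shRNA against it, which is 2.72-fold lower (edgeR quasi-likelihood adjusted p = 5.87e-10), and both libraries lay below both controls. Total counts ranged from 30847699 to 34684651 per library. Of 11 markers of adrenergic neuroblastoma, all 11 were detected and 9 were lower with the shRNA. MYCN, the most abundant of them, was called higher, at 5355 and 5511 CPM with scramble and 7068 and 7167 CPM with the shRNA. The summed level of all 11 was 9097 to 9517 CPM with scramble and 8973 to 9094 CPM with the shRNA, and the sum of the 10 without MYCN was 3742 to 4007 and 1905 to 1927 CPM. Markers of other cell types were low: the 4 Schwann cell markers summed to 1.5 to 1.7 CPM with scramble and 2.19 to 2.66 CPM with the shRNA, the 4 leukocyte markers to 4.92 to 7.61 and 4.18 to 4.56 CPM, the 3 endothelial markers to 1.01 to 1.07 and 0.874 to 1.16 CPM, and the 4 epithelial markers to 4.26 to 5.56 and 2.78 to 2.90 CPM. CD3E and PECAM1 had no count in any library. The 6 fibroblast markers summed to 303 to 319 CPM with scramble and 270 to 271 CPM with the shRNA, with 2 members higher and 3 lower. The share of counts from the mitochondrial chromosome was 7.27% and 7.10% with scramble and 6.42% in each shRNA library. The part of the adrenergic markers, the fibroblast markers and the mitochondrial share in the differences below was not tested.

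Because the 4 ID genes moved in the same direction, the 250 bases before their start sites are shown, as held in RefSeq for GRCh38.p14. Each ID gene has 1 start in that table. The windows are chr20:31605039-31605288 on the plus strand for ID1, chr2:8681806-8682055 on the plus strand for ID2, chr1:23559502-23559751 on the minus strand for ID3 and chr6:19837120-19837369 on the plus strand for ID4. Sequences run 5′ to 3′ along the gene, and capitals mark E-boxes (CANNTG), CCAAT boxes (CCAAT) and TATA boxes (TATAAA), the last 2 on either strand; matches that overlap run together.
ID1: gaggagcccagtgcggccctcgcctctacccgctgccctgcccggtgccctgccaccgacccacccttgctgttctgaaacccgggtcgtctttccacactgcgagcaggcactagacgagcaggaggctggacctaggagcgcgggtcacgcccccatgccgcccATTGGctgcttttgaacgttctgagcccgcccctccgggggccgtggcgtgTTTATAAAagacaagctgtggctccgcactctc
ID2: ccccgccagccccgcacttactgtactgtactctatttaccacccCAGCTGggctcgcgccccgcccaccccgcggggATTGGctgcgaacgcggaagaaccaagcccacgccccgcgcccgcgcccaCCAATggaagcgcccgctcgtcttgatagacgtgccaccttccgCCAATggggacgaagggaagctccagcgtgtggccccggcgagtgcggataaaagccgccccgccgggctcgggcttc
ID3: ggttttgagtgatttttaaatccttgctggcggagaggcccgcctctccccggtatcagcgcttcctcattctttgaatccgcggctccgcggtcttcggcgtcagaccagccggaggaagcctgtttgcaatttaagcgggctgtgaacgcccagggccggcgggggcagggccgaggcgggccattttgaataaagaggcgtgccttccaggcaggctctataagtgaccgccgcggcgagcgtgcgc
ID4: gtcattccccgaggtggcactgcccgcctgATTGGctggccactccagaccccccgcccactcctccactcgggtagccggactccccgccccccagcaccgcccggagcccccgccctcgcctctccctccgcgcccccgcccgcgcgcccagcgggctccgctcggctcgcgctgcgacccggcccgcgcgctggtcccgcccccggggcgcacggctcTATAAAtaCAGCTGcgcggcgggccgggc

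An E-box of the form CAGCTG, one of the cores that E-protein dimers are known to bind, lay 205 bases before the start of ID2 and 21 bases before that of ID4. No E-box was found in the windows of ID1 and ID3. An E-box occurs in 61.8% of the 35116 RefSeq windows of this length. TATAAA was found 31 bases before the start of ID1 and 29 bases before that of ID4, against 10.7% of all windows on either strand; the ID1 match overlaps one on the opposite strand. CCAAT was found once in ID1 and ID4 and at 3 places in ID2, against 32.0% of all windows. Neither GGCGCC, a GC-rich SMAD element (16.4% of all windows), nor GCGTGGGCG, the EGR element (0.720%), was present on either strand in any of the 4 windows. These searches cover only the letters of these windows. In GENCODE 29 the windows of ID2 and ID3 lie inside those genes, which begin upstream at 8678845 and 23559794. The bases before those positions were not searched. The windows were rich in G and C, from 62.0% in ID3 to 78.8% in ID4, where the median over all windows was 58.0%.

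All 4 ID genes rose with the IRF2BP2 shRNA, by between 4.05-fold and 7.56-fold, and the E-protein genes TCF4 and TCF12 fell by 1.53-fold and 1.79-fold. The third E-protein gene, TCF3, was not called. Of the 7 members, 6 were thus called. Over all genes tested, 42.0% were called, 20.6% higher and 21.4% lower, at an adjusted p under 0.05 in edgeR. A rise over 4-fold, which each ID gene had, was called for 1.06% of all genes. ID3 was just over that fold, and its rise was under 4-fold in 3 of 11 alternative fits, with a lowest value of 3.91-fold: upper quartile scaling, a mean of at least 10 CPM, and IRF2BP2 shRNA replicate 2 left out. Since these genes were chosen with this contrast in view, nothing is read from their counts against these shares. In bulk RNA, a change in the number of cells that express a gene and a change in its RNA per cell cannot be told apart.

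ID1, an inhibitor known as a sensitive readout of BMP signalling, lies on chromosome 20 from 31605283 to 31606515 (GRCh38, gene ENSG00000125968). It was at 19.0 and 17.7 CPM in the scramble libraries and at 140.4 and 137 CPM with the IRF2BP2 shRNA. The groups did not overlap, and every shRNA library was between 7.23 and 7.93 times every scramble library. Its log2 fold change of 2.92 (standard error 0.06) was the largest of the set and the 60th largest rise among 13734 protein-coding genes tested.

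ID2, an inhibitor that also binds the retinoblastoma protein and has long been linked to MYCN in neuroblastoma, lies on chromosome 2 from 8678845 to 8684453 (ENSG00000115738). It was at 24.8 and 23.6 CPM with scramble and at 158 and 159.7 CPM with the shRNA, a log2 fold change of 2.72 (standard error 0.05). Replicates differed by at most 1.05 times, and the ratio between groups was 6.39 to 6.77 over all pairs of libraries. The antisense gene ID2-AS1 overlaps 38 bases of its exons and had a mean of 52 counts against 2942 for ID2. The ID2B pseudogene had no count in any library.

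ID3, on chromosome 1 from 23557918 to 23559794 (ENSG00000117318), was the most abundant ID gene in both groups. It was at 52.4 and 52.6 CPM with scramble and at 208 and 217 CPM with the shRNA. It had the smallest rise of the 4, with a log2 fold change of 2.02 (standard error 0.04). Its ratios over pairs of libraries, from 3.95 to 4.15, did not overlap those of ID1, ID2 or ID4. The ID4 ratios rest on 25 and 24 counts with scramble, so the order of ID3 and ID4 is uncertain.

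ID4, known for its roles in neural and mammary progenitors, lies on chromosome 6 from 19837386 to 19840684 (ENSG00000172201) and was nearly silent in the controls. It had 25 and 24 counts with scramble (0.720 and 0.781 CPM) and 118 and 135 counts with the shRNA (3.69 and 4.21 CPM). Both shRNA libraries were above both controls, by 4.72 to 5.86 times over pairs of libraries. The low counts gave its log2 fold change of 2.39 a standard error of 0.28, several times that of the other ID genes.

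TCF3 encodes the E12 and E47 proteins by alternative splicing and lies on chromosome 19 from 1609290 to 1652605 (ENSG00000071564). It was at 379 and 385 CPM with scramble and at 363 and 370.1 CPM with the shRNA, a log2 fold change of -0.06 (standard error 0.04). The lower control was only 1.02 times the higher shRNA library. With upper quartile scaling the log2 fold change was -0.11 and with only genes of at least 10 CPM it was -0.10, and in these 2 settings TCF3 passed the threshold.

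TCF4, the E protein also called E2-2 and the gene of Pitt-Hopkins syndrome, lies on chromosome 18 from 55222331 to 55664787 (ENSG00000196628). It is not the WNT effector that shares this name. It was at 399 and 407 CPM with scramble and at 259 and 269 CPM with the shRNA, a log2 fold change of -0.61 (standard error 0.04). The groups were well apart, with controls 1.48 to 1.57 times the shRNA libraries.

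TCF12, also called HEB, lies on chromosome 15 from 56918623 to 57299281 (ENSG00000140262) and showed the largest fall of the 3. It was at 344 and 314 CPM with scramble and at 179 and 188 CPM with the shRNA. Its log2 fold change was -0.84 (standard error 0.05), and controls were 1.67 to 1.92 times the shRNA libraries. The 2 scramble libraries differed by 1.09 times, the widest gap between controls in the set, and far less than the gap between groups.

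**Figure D1:**
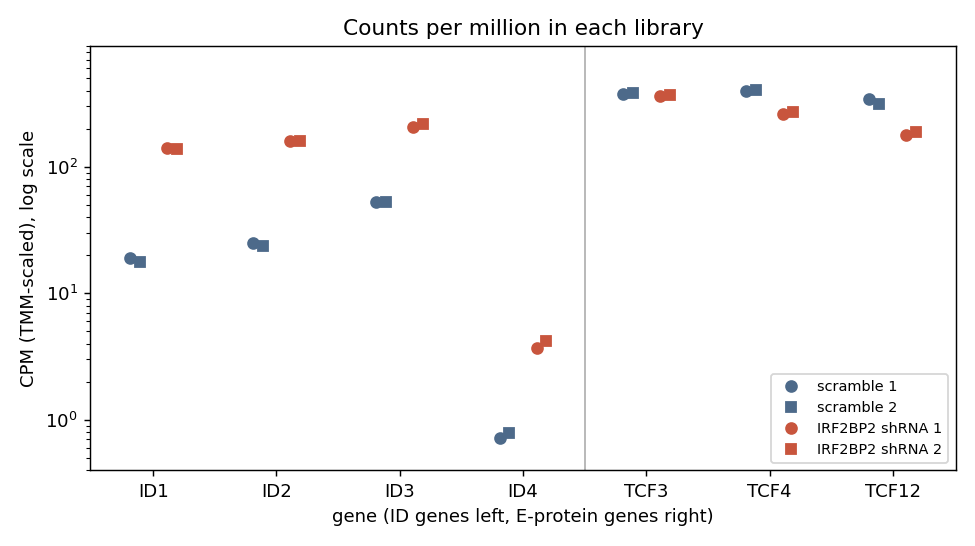
CPM (log axis) of the 4 ID genes and 3 E-protein genes, with 1 point per library, circles for replicate 1 and squares for replicate 2. The shRNA points of each ID gene lie well above the scramble points (ID1 at 140.4 and 137 against 19.0 and 17.7 CPM), those of TCF4 and TCF12 lie below, and those of TCF3 nearly coincide.

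Both shRNA libraries lay above both scramble libraries for the 4 ID genes and below them for the 3 E-protein genes, including TCF3. Such separation was common over all genes tested, at 34.4% above and 36.0% below. The ID genes sat far out in the distribution of changes: 99.6% of the tested genes had a lower log2 fold change than ID1, 99.5% than ID2, 99.3% than ID4 and 98.9% than ID3. TCF12 and TCF4 lay at 11% and 16.3% of that distribution, nearer to its centre, and TCF3 at 45.6%. The median over all genes tested was -0.01.

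**Figure D2:**
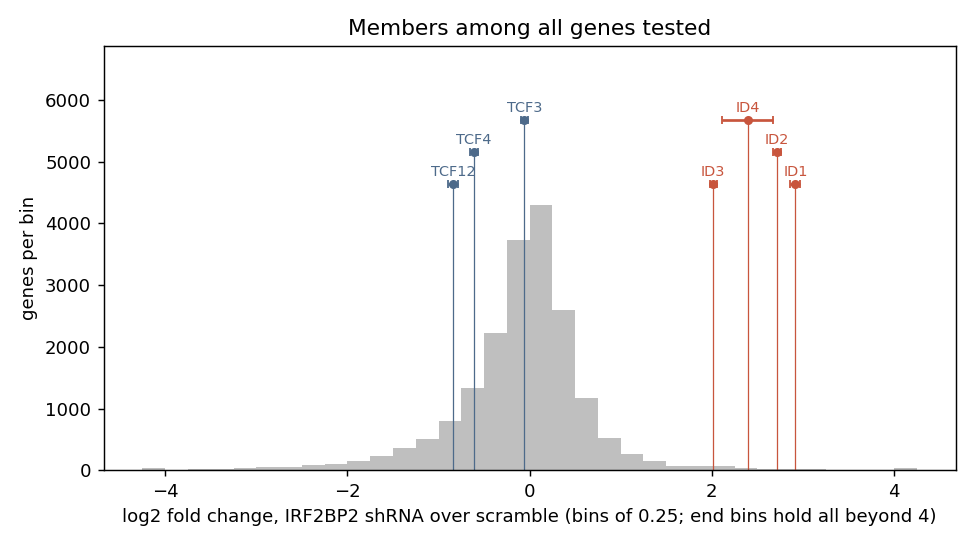
Histogram of log2 fold changes of all 19093 genes tested (bins of 0.25), with the members marked as points at their own value; horizontal bars are standard errors and the height of a point has no meaning. The 4 ID genes lie between 2.02 and 2.92, in the thin upper tail, while TCF4 and TCF12 lie on the lower shoulder at -0.61 and -0.84.

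The levels of different genes were compared per kilobase of exon. In the scramble cells the order on this scale was TCF3 (62.8 ± 0.722 CPM per kilobase, SD, n = 2), TCF12 (34.8 ± 2.22), ID3 (29.2 ± 0.0886), ID1 (14.9 ± 0.728), TCF4 (14.5 ± 0.199), ID2 (11 ± 0.383) and ID4 (0.320 ± 0.0185). ID1 and TCF4 overlapped between libraries, and the other neighbours were apart by more than their spread. In the shRNA cells ID3 (118 ± 3.84), ID1 (113 ± 1.91) and ID2 (72.1 ± 0.423) stood above TCF3 (60.3 ± 0.772), followed by TCF12 (19.4 ± 0.723), TCF4 (9.49 ± 0.257) and ID4 (1.69 ± 0.159). ID3 and ID1 were the closest neighbours there, at 116 and 121 against 114 and 111 CPM per kilobase, and did not overlap. With the longest transcript of each gene as its length, TCF4 (47.8 and 48.8 CPM per kilobase) stood above ID3 (41.9 and 42.1) with scramble, and ID2 (77.6 and 78.2) stood below TCF3 (81.7 and 83.1) with the shRNA. Among the protein-coding genes tested, the level of ID1 per kilobase of exon moved from percentile 78.1 to 98.2, that of ID2 from 70.5 to 96.8 and that of ID3 from 89.9 to 98.4. ID4 stayed in the lower part, at percentiles 10.8 and 28.9. TCF12 went from percentile 92.1 to 82.8 and TCF4 from 77.4 to 65.7, while TCF3 was at 96.4 and 95.9.

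Summed over the class, ID transcripts were at 55.4 ± 1.00 CPM per kilobase with scramble and 305 ± 2.50 with the shRNA (SD, n = 2). E-protein transcripts summed to 112 ± 1.30 and 89.2 ± 1.75 CPM per kilobase. The ratio of the ID sum to the E-protein sum was thus 0.494 ± 0.00325 with scramble and 3.41 ± 0.0390 with the shRNA. E-protein transcripts were the more abundant class in both scramble libraries and ID transcripts in both shRNA libraries. The ratio depends on the gene lengths used. The exons of all transcripts together span more bases than the longest transcript for TCF3, TCF4, TCF12, ID2 and ID3, by the most for TCF4, whose 90 annotated transcripts span 27828 bases where the longest has 8343. With the longest transcript of each gene as its length the ratio was 0.367 with scramble and 2.51 with the shRNA, and the order of the classes in each group was the same. These are RNA levels, and the proteins were not measured here.

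The makeup of each class also differed between the groups. ID3 made up 52.8% ± 1.12 of the ID sum with scramble and 38.8% ± 0.940 with the shRNA, and ID1 26.8% ± 0.828 and 36.9% ± 0.932. ID2 went from 19.8% ± 0.333 to 23.7% ± 0.0555, and ID4 was at 0.578% ± 0.0438 and 0.553% ± 0.0475. Within the E-protein sum, TCF3 made up 56.0% ± 1.29 with scramble and 67.6% ± 0.462 with the shRNA, TCF12 31.1% ± 1.62 and 21.8% ± 0.383, and TCF4 12.9% ± 0.327 and 10.6% ± 0.0792. The share of ID4 overlapped between the groups, and the other shares did not. These shares depend on the gene lengths used. With the longest transcript of each gene as its length, TCF4 made up 25.7% with scramble and 21.9% with the shRNA. TCF12 then made up 28.8% and 21.0%, so that it stood below TCF4 in both shRNA libraries. ID3 made up 60.8% and 46.9% of the ID sum on that scale. Each share apart from that of ID4 moved in the same direction.

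**Figure D3:**
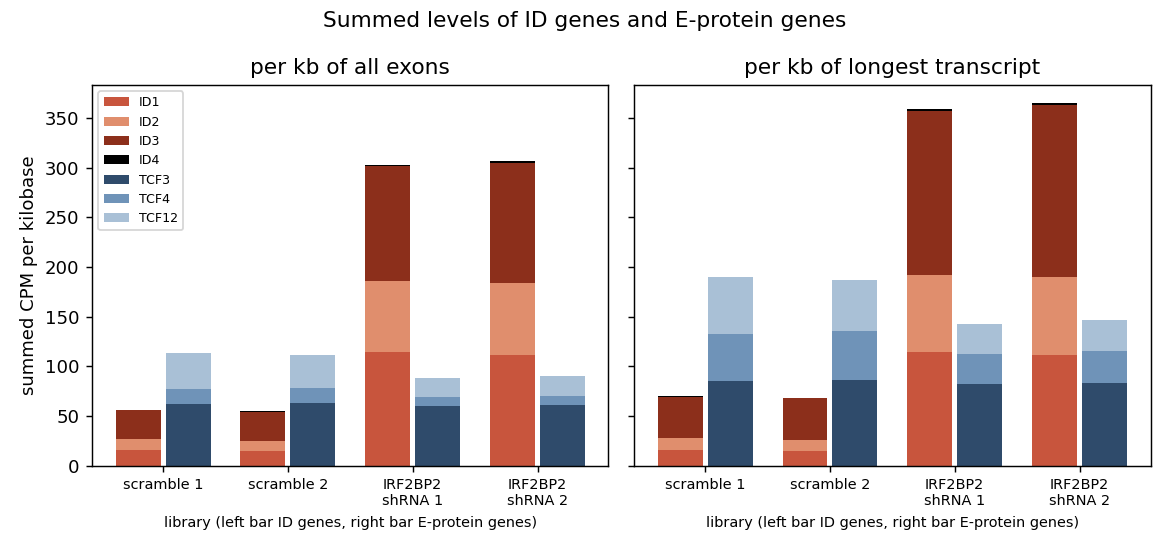
Stacked bars of the summed level (CPM per kilobase) of the ID genes (left bar) and E-protein genes (right bar) in each of the 4 libraries, per kilobase of all exons in the left panel and of the longest transcript in the right panel. The ID bar is shorter than the E-protein bar in both scramble libraries and taller in both shRNA libraries, with sums of 55.4 against 112 and 305 against 89.2 in the left panel as group means.

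The genes whose profile over the 4 libraries was closest to ID1, by the root mean square difference of mean-centred log2 CPM among 10631 protein-coding genes of at least 5 CPM, were MSX2 (0.05) and SGK1 (0.06). MSX2, a homeobox gene that BMP signalling is known to induce, was at 6.85 and 6.74 CPM with scramble and 58.4 and 54.7 CPM with the shRNA. SGK1, a kinase induced by serum and glucocorticoids, was at 10.4 and 9.60 CPM and then 85.2 and 81.8 CPM. The closest to ID2 were FAM167A (0.03), at 30.2 and 29.6 CPM and then 201 and 193 CPM, and the aldo-keto reductase gene AKR1C1 (0.06), at 5.04 and 5.30 CPM and then 37.9 and 36.2 CPM. With 2 groups of 2 libraries, such likeness reflects mainly the size of the difference between the groups.

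The route by which BMP signals are known to reach ID genes was mostly higher. Of 30 listed ligands, receptors, SMAD factors and inhibitors, 25 were tested, 19 rose, 4 fell and 2 were not called. These are 76.0% higher and 16.0% lower, against 20.6% and 21.4% of all genes tested. The median of their log2 fold changes was 0.42, against -0.01 over all genes tested. This list, like those below, was chosen with earlier results of these data known. Nothing is therefore read from its shares or its median against those of all genes. Among ligands, BMP6 had 9 and 3 counts with scramble and 247 and 263 with the shRNA, or 0.178 ± 0.114 and 7.97 ± 0.346 CPM (SD, n = 2; edgeR adjusted p = 2.42e-07). The ligands BMP7 (-1.39) and BMP4 (-1.58) fell, as log2 fold changes. Among receptors, the co-receptor gene ENG, endoglin, rose from 19.2 ± 0.778 to 79.8 ± 3.59 CPM (edgeR adjusted p = 2.65e-09), and the type I receptor gene BMPR1B fell from 141 ± 4.99 to 70.9 ± 1.46 CPM (edgeR adjusted p = 1.77e-08).

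SMAD6 and BAMBI, which are feedback inhibitors of the pathway and known BMP targets like the ID genes, both rose. SMAD6 went from 20.0 ± 1.01 to 122 ± 4.50 CPM (log2 fold change 2.61, edgeR adjusted p = 1.38e-10), which lies between the changes of ID2 and ID4. BAMBI went from 14.5 ± 1.29 to 62.0 ± 0.560 CPM (log2 fold change 2.09, edgeR adjusted p = 7.27e-09), close to that of ID3. The activity of BMP signalling was not measured, and its part in the ID changes was not tested. The receptor gene ACVRL1 was the weakest fall (-0.48, edgeR adjusted p = 0.0308). The ACVRL1 call was lost in 4 of the 10 alternative settings that tested it, among them the fits without scramble replicate 1 (edgeR adjusted p = 0.172) and without IRF2BP2 shRNA replicate 1 (edgeR adjusted p = 0.201). BMP4, BMP7 and ACVRL1 were named after their values were seen.

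The tissue-specific bHLH genes that pair with E proteins were mostly low or silent in these cells, since 25 of 39 listed did not pass the filter on low counts. Of the 14 tested, 2 rose, 4 fell and 8 were not called. These shares, 14.3% higher and 28.6% lower, lie near the 20.6% and 21.4% of all genes tested. TWIST1 fell from 283 ± 17.0 to 168 ± 7.0 CPM (edgeR adjusted p = 5.79e-07). The antisense gene AC003986.2 overlaps 6.94% of TWIST1 exons. HAND2, which with E proteins drives noradrenergic genes, fell from 888 ± 77.8 to 673 ± 1.62 CPM (edgeR adjusted p = 5.38e-04). Of its exons, 24.1% overlap the antisense gene HAND2-AS1 and the libraries do not mark strand. MESP1, named after its value was seen, fell from 2.42 ± 0.244 to 0.890 ± 0.244 CPM (edgeR adjusted p = 0.00379). HAND1 rose from 171 ± 8.84 to 224 ± 2.84 CPM (edgeR adjusted p = 3.22e-05), and ATOH8, another known BMP target, from 2.36 ± 0.444 to 19.2 ± 0.556 CPM (edgeR adjusted p = 7.22e-08). The median log2 fold change of the 14 was -0.58, and it was -0.09 without scramble replicate 1.

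Among the HES and HEY class of bHLH repressors, which do not need E proteins, 6 of 13 were tested, 3 rose, 1 fell and 2 were not called, where 20.6% of all genes tested were higher and 21.4% lower. HES1 rose from 12.7 ± 0.00373 to 32.2 ± 0.870 CPM (edgeR adjusted p = 3.05e-07), HEY1 from 23.0 ± 2.76 to 58.1 ± 1.03 CPM (edgeR adjusted p = 3.56e-07) and BHLHE40 from 5.26 ± 0.80 to 22.5 ± 1.96 CPM (edgeR adjusted p = 3.96e-07). BHLHE41 fell from 6.49 ± 0.302 to 3.59 ± 0.0408 CPM (edgeR adjusted p = 0.00273). Of its exons, 4.10% overlap SSPN on the other strand, and SSPN had a mean of 769 counts where BHLHE41 had 164. Without scramble replicate 1 the count of lower genes in this list was 2.

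Of 22 listed genes for the turnover of ID proteins and the cofactors of E proteins, 21 were tested, 4 rose, 12 fell and 5 were not called. The share higher was 19.0%, near the 20.6% of all genes tested, and the share lower was 57.1%, against 21.4%. With DESeq2 the count that fell was 7. The median of their log2 fold changes was -0.22. Since the list was chosen with earlier results of these data known, nothing is read from its shares. CBFA2T2, a corepressor of the ETO family that binds E proteins, fell from 127 ± 0.130 to 77.4 ± 1.55 CPM (edgeR adjusted p = 1.42e-07). LMO1, a neuroblastoma susceptibility gene whose LIM-only protein joins bHLH complexes, fell from 13.9 ± 0.459 to 4.34 ± 1.28 CPM (edgeR adjusted p = 3.80e-05). The ubiquitin ligase gene HUWE1 fell by 0.24 on the log2 scale (edgeR adjusted p = 4.00e-04), and the coactivator gene CREBBP rose by 0.39 (edgeR adjusted p = 1.62e-05). The other 3 genes that rose, named after their values were seen, were EP300 (0.24), LMO4 (0.47) and COPS5 (0.14). Without IRF2BP2 shRNA replicate 1 the count that rose was 2, with COPS5 (edgeR adjusted p = 0.203) and LMO4 (edgeR adjusted p = 0.0624) lost. The COPS5 call was lost in 8 of 11 alternative settings, without any 1 of the 4 libraries among them.

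Of 5 cyclin-dependent kinase inhibitor genes that have been described as E-protein targets, 3 fell, 1 rose and 1 was not called, where 21.4% of all genes tested were lower and 20.6% higher. CDKN1C, which encodes p57, fell from 10.3 ± 0.720 to 6.04 ± 0.249 CPM (edgeR adjusted p = 0.00151). CDKN2A fell from 13.9 ± 0.924 to 8.84 ± 0.450 CPM (edgeR adjusted p = 0.00149). CDKN1B fell by 0.18 on the log2 scale (edgeR adjusted p = 0.00522), and it did not pass when IRF2BP2 shRNA replicate 2 was left out (edgeR adjusted p = 0.0837). CDKN2B was called higher from very low levels, with 1 and 3 counts with scramble and 11 and 27 with the shRNA (edgeR adjusted p = 0.00874). It did not pass without scramble replicate 1 (edgeR adjusted p = 0.0649) or IRF2BP2 shRNA replicate 2 (edgeR adjusted p = 0.178). CDKN1A was at 4.45 ± 0.133 and 5.42 ± 0.105 CPM and was not called (edgeR adjusted p = 0.244).

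**Figure D4:**
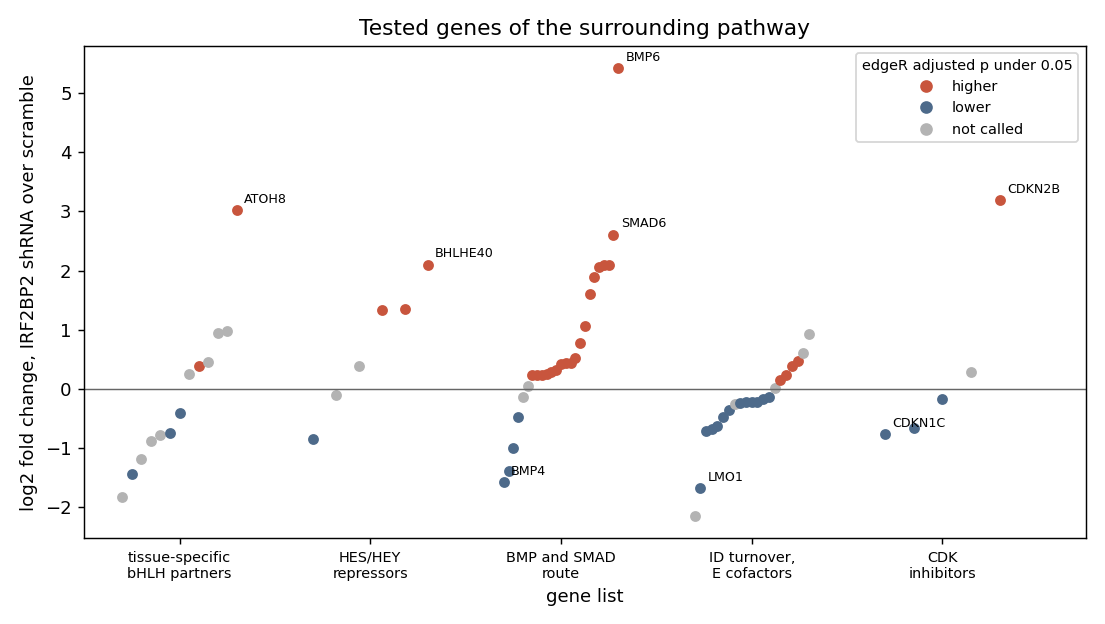
Log2 fold changes of the tested genes of the 5 pathway lists, with 13 of the 14 tissue-specific bHLH genes drawn, ordered by value within each list, with red for genes higher, blue for genes lower and grey for genes not called at an edgeR adjusted p under 0.05. In the BMP and SMAD list 19 of 25 points are red, led by BMP6, and in the tissue-specific bHLH list the highest point is ATOH8 at 3.02.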

How the data were processed

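The authors deposited raw read counts for each gene, in 1 column per library. Reads were aligned with HISAT2 2.2.0 to hg38, per the submitters' processing notes, while the sources used here do not name the read counter or annotation. The TruSeq RNA kit named in the labels' protocols does not mark strand. Control columns are named NC, which the labels do not explain. They were taken as scramble libraries because the series has only 1 other group, and replicates were matched by number. Replicates differed by more than sampling noise (chi-square over degrees of freedom 7.01 and 5.26), so none was a copy.

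The test was edgeR 4.0.16 in R 4.3.3 (filterByExpr, TMM scaling, robust quasi-likelihood F-test, two-sided), with p-values adjusted over all 19093 genes tested by Benjamini-Hochberg and a threshold of 0.05. Standard errors were derived as the size of the log2 fold change over the root of F. CPM are TMM-scaled counts relative to the library total. Symbols were found for 40995 identifiers, and all 117 listed symbols matched. Lengths, positions and overlaps came from GENCODE 29 on GRCh38. The procedure was tested on simulated data.

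The members and the 5 gene lists were chosen with earlier results of these data known. The genes named were the members, IRF2BP2, from each list up to 4 called genes with the smallest p, and HAND2, BMP6, SMAD6 and CDKN1C whatever their result. A gene that this rule took is not reported here. For ID1 and ID2, which changed most, the 2 genes of the most similar profile (log2 of CPM plus 0.5) were also named. Alternatives were DESeq2 1.42.0, limma 3.58.1 with voom, other scalings and filters, a replicate block, and leaving out each library.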

Additional observations from a re-analysis of the deposited data

How the results depend on the processing

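The 4 ID genes, TCF4 and TCF12 kept their direction and their side of the threshold in every one of 11 alternative fits in which they were tested; ID4 was not tested with a mean of at least 10 CPM. Log2 fold changes ranged from 2.87 to 2.98 for ID1, 2.67 to 2.76 for ID2, 1.97 to 2.05 for ID3, 2.30 to 2.49 for ID4, -0.66 to -0.58 for TCF4 and -0.90 to -0.77 for TCF12. TCF3 lay between -0.11 and -0.04. With the longest transcript as gene length, the summed ID level was 69.0 with scramble and 362 CPM per kilobase with the shRNA, the summed E-protein level 188 and 144, and their ratio 0.367 and 2.51. Among the lists, the HES and HEY genes lower numbered 0 with a mean of at least 10 CPM and 1 to 2 with a library left out. The turnover and cofactor genes higher numbered 2 to 3 with a library left out, and those lower 7 with DESeq2. The kinase inhibitor genes higher numbered 0 with a mean of at least 10 CPM and 0 to 1 with a library left out. The other 147 counts of called genes were within 1.5 times the reported ones.

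Nothing in the labels says that replicate numbers pair the libraries, and same-numbered libraries deviated together only weakly (r = 0.08 across 19093 genes, which are not independent). With the replicate number as a block, 3950 genes were higher and 3950 lower, against 3930 and 4086 without it, the same 4 ID genes were higher and TCF4 and TCF12 lower, and the log2 fold change of ID1 was 2.92. With 2 libraries per group, spread is poorly estimated, and for ID4 and CDKN2B low counts limit the precision.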
